A study of Homo sapiens with 12 samples.

Results

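The genes described here are the kinesin motor genes, taken as every gene on the array whose single annotated symbol is KIF or KIFC followed by a digit. The rule found 45 of 19775 genes with a single symbol, covered by 91 probe sets, and each gene was read from its probe set with the highest mean over all 12 arrays. Of the 45, 4 symbols belong to antisense RNAs (KIF1C-AS1, KIF9-AS1, KIF23-AS1 and KIF25-AS1), which encode no motor, and 41 are kinesins. By textbook role, 13 of the 41 are mitotic kinesins, 15 are transport kinesins and 13 have other or mixed roles. KIF2A, a relative of the mitotic KIF2B and KIF2C, was counted among those of other or mixed roles. A gene was kept for testing where its signal exceeded the 40th percentile of all signals on the same array in at least 3 arrays, which held for 14725 genes and 38 of the 41 kinesins. The mitotic KIF2B and the less studied KIF24 and KIF27 fell under that level and were not tested.

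The arrays were Affymetrix 3′ expression arrays of H929, an established human multiple myeloma cell line, in 4 groups of 3. One arm consisted of cells infected with a short hairpin RNA, from which GFP-positive cells were then collected by flow cytometry, either a hairpin against GFP (shGFP, the control) or against BCL9 (shBCL9), a coactivator of beta-catenin. The other arm consisted of cells transfected with a microRNA, either the worm microRNA cel-miR-67 (the control) or human miR-30a/b/c/d/e (miR-30). The labels do not say whether the miR-30 members were given together, and they name no separate cultures, so p-values measure only the spread between arrays, which may be technical. The series asks how expression responds to BCL9 silencing and to miR-30, which its title names as acting on BCL9.

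Kinesins are ATPases that step along microtubules. Mitotic kinesins build and focus the spindle, move and align chromosomes, and set up the central spindle from which cytokinesis proceeds; most are made as cells approach division and destroyed as they leave it. Transport kinesins carry vesicles, mitochondria and other cargo through adaptor proteins, outside division as well as within it.

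The miR-30 microRNAs share their seed, the stretch that pairs with target messages. Their mature sequences, credited to RefSeq, are shown for 3 members of the family with the seed (bases 2 to 8) in capitals.

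hsa-miR-30a-5p: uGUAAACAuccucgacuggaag
hsa-miR-30c-5p: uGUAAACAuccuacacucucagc
hsa-miR-30e-5p: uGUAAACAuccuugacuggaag

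Promoter sequence is shown for kinesins on which the comparisons below turn: 7 mitotic genes that rose with miR-30 and 2 transport genes that fell with shBCL9. Each line holds 110 bases before and 15 bases from the annotated start, read 5′ to 3′ on the gene's own strand, from RefSeq on build GRCh38.p14. Capitals mark TTTGAA (the core of the CHR, an element known from cell-cycle promoters) and CCAAT, each searched on both strands, so that TTCAAA and ATTGG are their reverse forms.

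KIF20A, chr5:138179002-138179126, plus strand: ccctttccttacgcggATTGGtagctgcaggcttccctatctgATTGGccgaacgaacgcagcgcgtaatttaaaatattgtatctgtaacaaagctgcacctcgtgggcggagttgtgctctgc
KIF14, chr1:200620737-200620861, minus strand: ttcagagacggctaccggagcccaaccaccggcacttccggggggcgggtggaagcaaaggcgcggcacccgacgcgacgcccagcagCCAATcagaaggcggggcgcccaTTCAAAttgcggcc
KIF23, chr15:69414239-69414363, plus strand: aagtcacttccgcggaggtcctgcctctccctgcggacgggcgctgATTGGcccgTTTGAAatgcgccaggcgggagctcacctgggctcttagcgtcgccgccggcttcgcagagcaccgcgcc
KIF18A, chr11:28108142-28108266, minus strand: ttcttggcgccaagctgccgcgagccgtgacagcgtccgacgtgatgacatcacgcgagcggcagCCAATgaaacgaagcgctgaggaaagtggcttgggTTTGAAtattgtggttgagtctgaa
KIF11, chr10:92593020-92593144, plus strand: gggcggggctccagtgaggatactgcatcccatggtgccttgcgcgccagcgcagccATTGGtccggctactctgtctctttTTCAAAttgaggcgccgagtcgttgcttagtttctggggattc
KIFC1, chr6:33391713-33391837, plus strand: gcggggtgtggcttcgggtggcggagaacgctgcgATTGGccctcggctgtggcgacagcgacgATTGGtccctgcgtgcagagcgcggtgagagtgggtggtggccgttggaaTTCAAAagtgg
KIF2C, chr1:44739727-44739851, plus strand: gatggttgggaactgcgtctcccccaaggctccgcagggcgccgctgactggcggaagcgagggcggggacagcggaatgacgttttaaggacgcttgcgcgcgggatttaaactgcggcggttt
KIF3B, chr20:32277541-32277665, plus strand: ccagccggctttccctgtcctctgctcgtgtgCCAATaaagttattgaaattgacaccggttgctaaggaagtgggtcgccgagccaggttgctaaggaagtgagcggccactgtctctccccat
KIF13A, chr6:17987621-17987745, minus strand: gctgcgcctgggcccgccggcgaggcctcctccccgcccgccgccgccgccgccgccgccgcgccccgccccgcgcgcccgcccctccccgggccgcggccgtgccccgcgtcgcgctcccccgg

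Of the 9 sequences, those of KIF14, KIF23, KIF18A, KIF11 and KIFC1 hold both motifs, KIF20A and KIF3B hold CCAAT alone, and KIF2C and KIF13A hold neither. In the full window of 250 bases before to 50 after the start, TTTGAA occurred in 9 of the 12 tested mitotic kinesins (75.0%) and CCAAT in 10 (83.3%). Both stood in one window in 8 of the 12 (66.7%). Among the 11 transport kinesins with a window, TTTGAA occurred in 1 (KIF5B, 9.09%) and CCAAT in 4 (36.4%). Over all 27305 genes with a window, the shares were 18.2% for TTTGAA, 39.7% for CCAAT and 7.26% for both. The mitotic kinesins without TTTGAA were KIF20A, KIF2C and KIF22, and those without CCAAT were KIF15 and KIF2C. A match describes letters and does not show that a factor binds there.

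**Figure D1:**
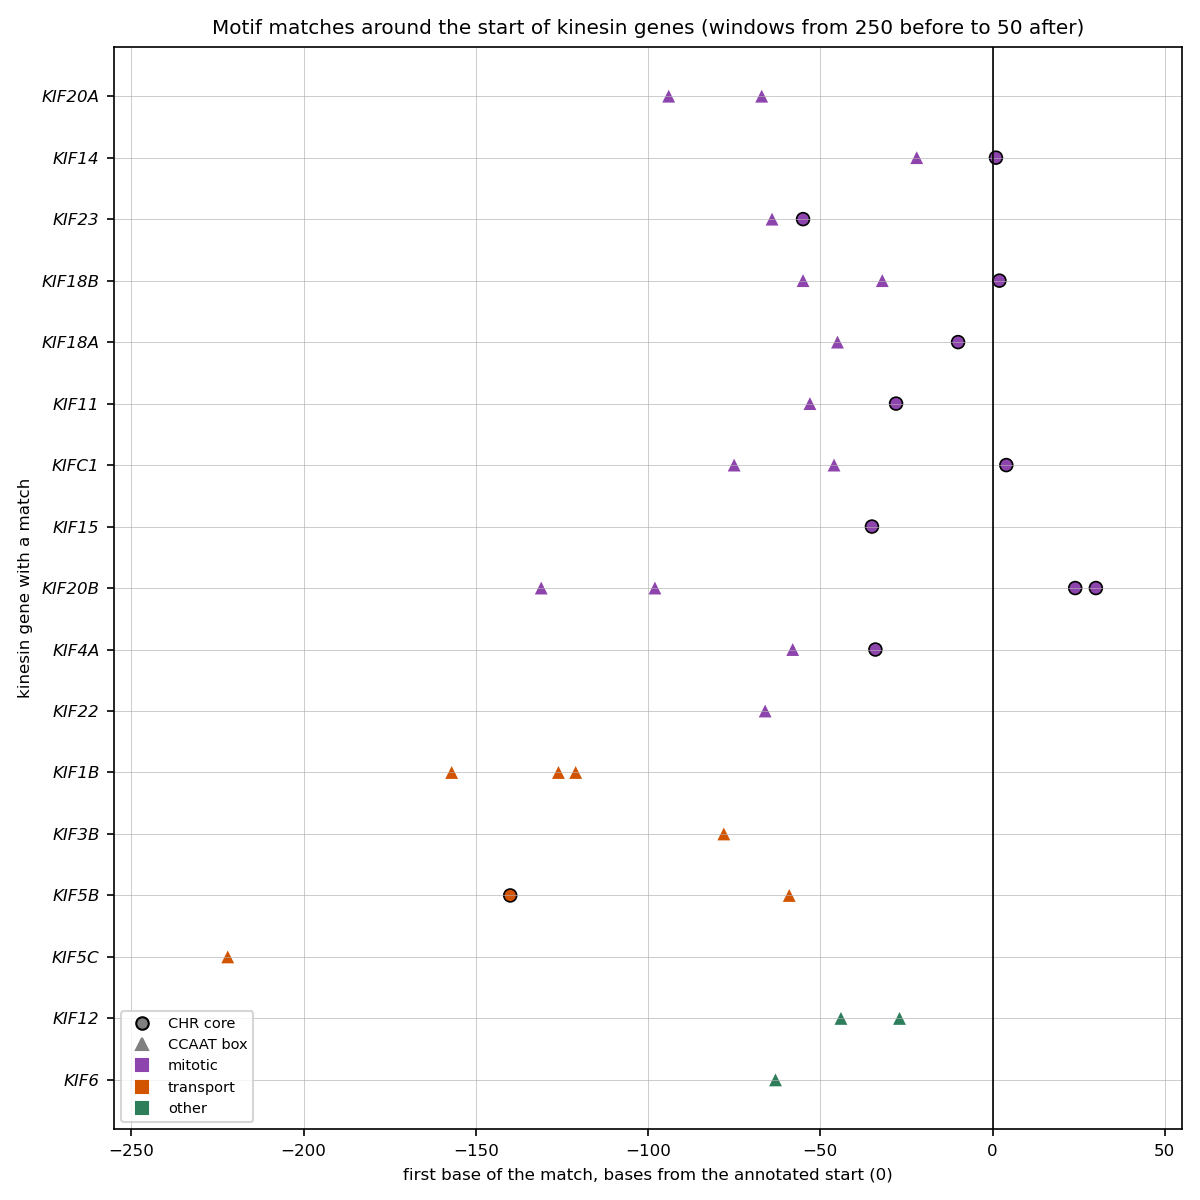
Position of each TTTGAA (CHR core, circles) and CCAAT (triangles) match in bases from the annotated start, for tested kinesins with a match; colours give the class. The 12 mitotic kinesins include 9 with TTTGAA, against 1 of the 11 transport kinesins with a window (KIF5B) and 0 of the 8 others.

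Facts of the whole series that bear on the kinesins were as follows. The median log2 signal per array was 5.46 to 5.53. BCL9 itself read 7.61 to 7.85 in shBCL9 and 7.88 to 7.90 in shGFP (log2 change −0.15, adjusted p = 0.0874), and 7.83 to 8.05 with miR-30 against 7.79 to 7.86 with cel-miR-67 (0.14, adjusted p = 0.269), so neither difference passed the test. All 10 plasma cell markers lay above the level in all 12 arrays. Of 16 markers of other cell types on the array, 9 did so (CD3D, CD3E, CD4, CSF1R, PAX5, HBB, COL1A1, PECAM1 and VWF). The other 7 lay under it in every array (CD8A, CD14, LYZ, MS4A1, COL3A1, EPCAM and KRT19). The mean level of those 16 markers was 5.41 to 5.51 in the infected arrays and 5.13 to 5.22 in the transfected ones. PECAM1 among them averaged 9.93 in shGFP and 9.55 in shBCL9, against 7.15 with cel-miR-67 and 6.91 with miR-30. The signal of 18S ribosomal RNA was 12.30 to 12.43 in shGFP, 13.20 to 13.24 in shBCL9, 12.46 to 12.57 with cel-miR-67 and 12.60 to 12.67 with miR-30. The 3′ minus 5′ signal of ACTB, a measure of RNA integrity and labelling, was 1.30 ± 0.11 in shGFP, 1.67 ± 0.08 in shBCL9, 2.16 ± 0.09 with cel-miR-67 and 2.07 ± 0.01 with miR-30 (SD, n = 3).

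With miR-30, 10 of the 12 tested mitotic kinesins rose against cel-miR-67 and 0 fell, while 0 of the 15 transport kinesins and 0 of the 11 other kinesins passed the test in either direction on the probe set used. A gene was called changed at a Benjamini-Hochberg adjusted p under 0.05 over all 14725 genes, in a limma fit to all 12 arrays. Over all genes, 4.98% were called in this comparison, 2.34% as higher and 2.63% as lower; the 733 genes called became 413, 297 or 386 without cel-miR-67 replicate 1, 2 or 3 and 315 without miR-30 replicate 2. The median log2 change was 0.44 over the mitotic kinesins, −0.03 over the transport kinesins and −0.01 over the others, beside −0.02 over all genes. These classes were chosen with earlier results of the same arrays known, so the counts describe them and carry no test of their own. In whole-cell RNA, a larger share of dividing cells and more kinesin RNA per cell cannot be told apart.

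The 3 largest changes were those of KIF20A, KIF14 and KIF23. KIF20A, which carries the chromosomal passenger complex to the central spindle, read 9.36, 9.31 and 9.41 with miR-30 against 8.42, 8.57 and 8.57 with cel-miR-67. All 3 miR-30 arrays lay above all 3 controls, a 1.79-fold rise (log2 change 0.84 ± 0.05 SE, adjusted p = 1.73e-05). KIF14, which works in cytokinesis with the kinase CIT, read 9.18, 9.22 and 9.11 against 8.41, 8.42 and 8.47, again without overlap (1.67-fold, 0.74 ± 0.05, adjusted p = 1.73e-05). KIF23, the motor of the centralspindlin complex, read 9.30, 9.71 and 9.72 against 8.86, 8.89 and 8.83. Its first miR-30 array lay well below the others yet above every control (1.65-fold, 0.72 ± 0.11, adjusted p = 0.00341). The second probe sets of KIF14 and KIF23 gave changes of 0.60 and 1.10, in the same direction.

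KIF18A, KIF18B, KIF2C and KIF4A rose by less, and KIF22 was not called. KIF18A, which dampens chromosome movements at the spindle equator, read 7.55, 7.75 and 7.72 with miR-30 against 7.14, 7.34 and 7.12. The lowest treated array stood above the highest control (0.47 ± 0.07, adjusted p = 0.00266). Its relative KIF18B, a motor of astral microtubule ends, read 9.44, 9.32 and 9.35 against 8.96, 8.91 and 8.78 (0.48 ± 0.06, adjusted p = 0.0012), without overlap. KIF2C, the centromeric microtubule depolymerase also called MCAK, read 11.06, 10.99 and 11.04 against 10.57, 10.59 and 10.63. These arrays were close within each group and apart between groups (0.43 ± 0.04, adjusted p = 0.000189), and its second probe set gave 0.44. KIF4A, a chromosome-bound motor that shortens the central spindle with PRC1, rose by 0.24 ± 0.05 (adjusted p = 0.0118); its probe set may also detect the near-identical KIF4B, which no single-symbol probe set covered. KIF22, a chromosome arm motor, gave −0.17 (adjusted p = 0.308) and 0.15 from its second probe set.

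KIF11, KIFC1 and KIF15 rose as well. KIF11, the plus-end motor known as Eg5 that separates the poles, read 9.47, 9.51 and 9.50 with miR-30 against 9.08, 9.10 and 8.95. The treated arrays were nearly equal and all above the controls (0.45 ± 0.06, adjusted p = 0.00156). KIFC1, a minus-end motor that gathers poles, read 9.31, 9.17 and 9.25 against 8.65, 8.93 and 8.92. One control array was lower than the rest, and the groups did not overlap (0.41 ± 0.08, adjusted p = 0.0104). KIF15, which can share the work of KIF11, rose by 0.31 ± 0.06 (adjusted p = 0.0119). That call was lost without cel-miR-67 replicate 2 (adjusted p = 0.0583) or miR-30 replicate 2 (adjusted p = 0.0587). KIF20B, a cytokinesis motor, did not pass (0.26, adjusted p = 0.0857), although its miR-30 arrays lay above its controls. It was called with trended robust variance (adjusted p = 0.0195) or after a further quantile normalization (adjusted p = 0.041).

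Non-overlap of the 3 treated and 3 control arrays, with the treated higher, was seen for 11 of the 12 mitotic kinesins, all but KIF22, beside 10% of all genes. When the 18S signal, which was higher in every miR-30 array than in every control, was put in the model, 3 mitotic calls were left (KIF14, KIF20A and KIF2C). The fit on only the 6 arrays of this arm lost KIF4A (adjusted p = 0.0521). After a further quantile normalization, the share of higher genes among all called genes was 58.3%, against 47.1% as deposited.

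**Figure D2:**
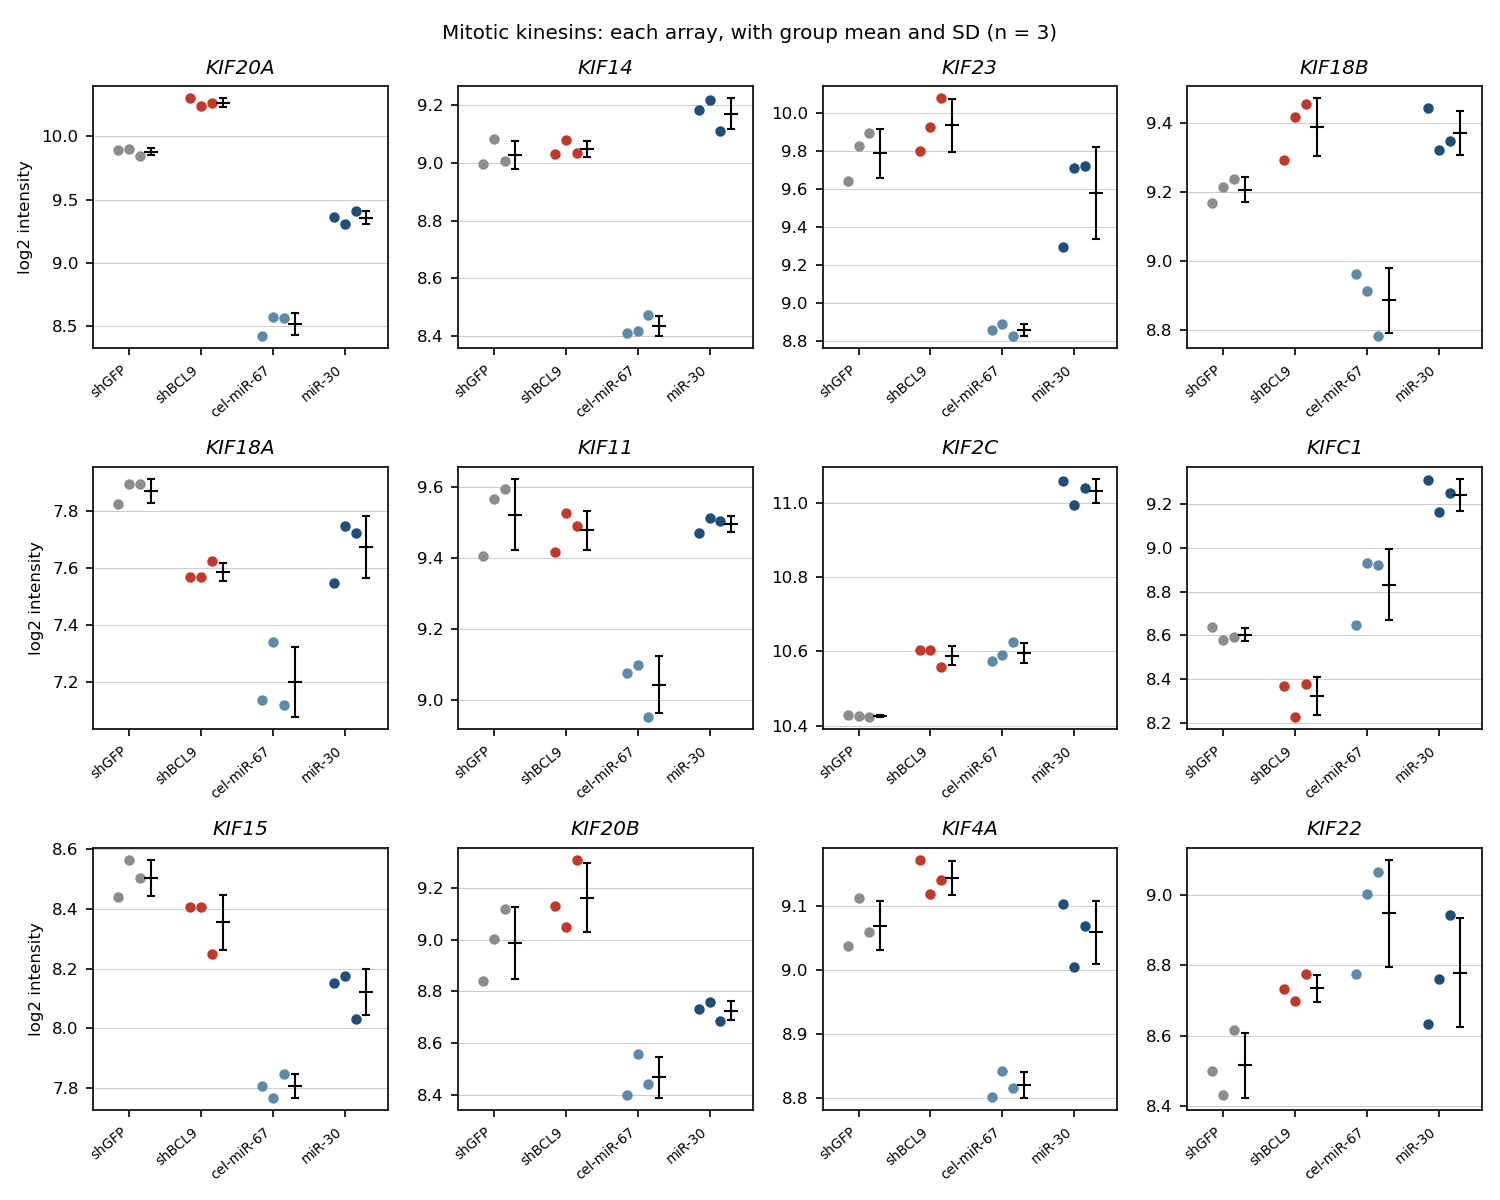
Log2 signal of each of the 12 tested mitotic kinesins in every array (points), with the group mean and SD (n = 3) beside them; each panel has its own scale, which does not start at 0. In 11 of the 12 panels the 3 miR-30 arrays lie above the 3 cel-miR-67 arrays, and KIF22 is the exception.

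The probe sets used for the transport kinesins gave −0.21 to 0.13 in the same comparison, and their 95% intervals together spanned −0.38 to 0.30. Among their other probe sets, those of KIF1B gave −0.30, which passed as a decrease over all probe sets (adjusted p = 0.0391), and −0.11. Another of KIF1C gave −0.21 and another of KIF5C 0.17, and neither passed. The conventional kinesin heavy chains gave −0.03 for KIF5B, 0.02 for KIF5A and −0.21 for KIF5C (adjusted p = 0.117). The kinesin-2 motors, which pair up to carry cargo and ciliary proteins, gave −0.16 for KIF3A, −0.01 for KIF3B and 0.13 for KIF3C, and the related homodimer KIF17 gave −0.09. The kinesin-3 family, carriers of vesicles and endosomes, gave 0.02 for KIF1B, 0.01 for KIF1C, −0.03 for KIF1A, −0.16 for KIF13A, −0.05 for KIF13B and −0.09 for KIF16B. The minus-end motors KIFC2 and KIFC3 gave −0.00 and −0.18. Arrays of KIF5C, KIF13A and KIF3A lay wholly below their controls, 3 of 15 genes beside 16.1% of all genes. The 11 other kinesins ranged from −0.15 (KIF21B) to 0.14 (KIF7). Among them KIF2A, the relative of KIF2C, gave 0.13 and was not called (adjusted p = 0.143), and its second probe set gave 0.03. The miR-30 arrays of KIF2A and KIF7 lay wholly above their controls, 2 of the 11 others, beside 10% of all genes. Wholly below lay 0 of the 11, beside 16.1%.

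With shBCL9, kinesins of every class moved and in both directions, 10 higher and 10 lower among the 38 tested, in a comparison where 41.5% of all genes were called (18.7% higher and 22.9% lower). Among the mitotic kinesins 3 rose and 2 fell of 12, and among the transport kinesins 2 rose and 6 fell of 15. Of the 11 others, 5 rose and 2 fell. The class medians were 0.11, −0.00 and 0.11, beside 0.03 over all genes. The shBCL9 arrays lay wholly above shGFP for 5 mitotic and 3 transport kinesins, beside 24.8% of all genes, and wholly below for 3 and 6, beside 27.2%. The largest changes in either direction were decreases of transport kinesins.

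KIF5C, a conventional heavy chain best known from neurons, read 5.85, 5.80 and 5.81 in shBCL9 against 6.74, 6.64 and 6.93 in shGFP. The groups were far apart (1.93-fold lower, log2 change −0.95 ± 0.07, adjusted p = 5.73e-07), but its other probe sets gave −0.35 and 0.14. KIF13A, an endosome and Golgi carrier, read 5.70, 5.50 and 5.79 against 6.32, 6.67 and 6.64. All 3 shBCL9 arrays were lower (1.84-fold, −0.88 ± 0.10, adjusted p = 1.5e-05), while its other probe sets gave −0.55, 0.04 and 0.18. KIF16B, which moves early endosomes, read 5.30, 5.06 and 4.75 against 5.47, 5.72 and 5.51, near the level set for detection. Its arrays did not overlap (−0.53 ± 0.11, adjusted p = 0.0025), and its second probe set gave 0.16. KIF13B, a relative of KIF13A covered by 1 tested probe set, read 8.83, 8.79 and 8.77 against 9.22, 9.33 and 9.31. The shBCL9 arrays were tightly grouped below every control (−0.49 ± 0.06, adjusted p = 1.68e-05).

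The remaining called transport kinesins changed by less. KIFC3, a minus-end motor linked to cell junctions and the Golgi, read 6.63, 6.69 and 6.74 in shBCL9 against 6.26, 6.31 and 6.10. It had the larger of the 2 transport rises, and its groups did not overlap (0.46 ± 0.09, adjusted p = 0.00174). KIF3B fell by 0.34 (adjusted p = 0.000221; −0.32 from its second probe set), while its heterodimer partner KIF3A gave 0.11 and was not called (adjusted p = 0.208). The second probe set of KIF3A gave 0.26, which passed over all probe sets (adjusted p = 0.0112). It was called higher when its probe sets were averaged (adjusted p = 0.0202) or after a further quantile normalization (adjusted p = 0.0289), whereas with the ACTB covariate it gave −0.13. KIFC2 (−0.21, adjusted p = 0.0311; second probe set −0.61) and KIF5A (0.16, adjusted p = 0.0216) were called in the full fit. Each lost its call on removal of single arrays. KIFC2 did so without replicate 1 or 3 of shGFP or 1 or 2 of shBCL9 (adjusted p 0.069 to 0.117), and KIF5A without the same 4 arrays (0.0546 to 0.0642). In the fit on only the 6 arrays of this arm KIFC2 was not called (adjusted p = 0.051). KIF5B, KIF1A, KIF1B, KIF1C, KIF3A, KIF3C and KIF17 were not called, at −0.03 to 0.19. Other probe sets of KIF1C (−0.46, adjusted p = 0.00732) and KIF5B (−0.22, adjusted p = 0.0313) passed as decreases over all probe sets. Both genes were also called lower when their probe sets were averaged (adjusted p = 0.00731 and 0.0204). KIF1A was called without shBCL9 replicate 3 (adjusted p = 0.0327) and KIF3C without shGFP replicate 1 (adjusted p = 0.0372).

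Among the mitotic kinesins, KIF20A again had the largest change. It read 10.30, 10.24 and 10.26 in shBCL9 against 9.89, 9.90 and 9.85 in shGFP, without overlap (1.31-fold higher, 0.39 ± 0.05, adjusted p = 9.3e-05). KIF2C rose by 0.16 (adjusted p = 0.0089), while its second probe set gave 0.07. The KIF2C call was lost when its probe sets were averaged (adjusted p = 0.0506). KIF18B rose by 0.18 (adjusted p = 0.034), a call lost without any 1 of the 3 shGFP arrays or without shBCL9 replicate 2 or 3 (adjusted p 0.052 to 0.116). KIF18A and KIFC1 each fell by 0.28 (adjusted p = 0.00568 and 0.0113), and both had risen with miR-30. The other 7 gave −0.15 (KIF15) to 0.22 (KIF22) and were not called. KIF14 and KIF11, clearly raised with miR-30, read 0.02 and −0.04 here. The second probe set of KIF14 gave 0.19, which did not pass over all probe sets (adjusted p = 0.0599). KIF20B was called in 3 of 17 alternatives and KIF22 in 7 of 17, each including the fit without shGFP replicate 3 (adjusted p = 0.0399 and 0.0489). For KIF22 they also included the fit on only the 6 arrays of this arm (adjusted p = 0.0265), while its second probe set gave 0.07.

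Of the other kinesins, KIF26A, an atypical kinesin without motor ATPase activity, read 7.93, 8.11 and 7.96 in shBCL9 against 7.58, 7.55 and 7.68. Every shBCL9 array was higher (0.39 ± 0.07, adjusted p = 0.000429; 0.45 from its second probe set). KIF7, a ciliary-tip regulator of Hedgehog signalling, read 7.24, 7.22 and 7.24 against 7.66, 7.52 and 7.59. Here every shBCL9 array was lower (−0.36 ± 0.06, adjusted p = 0.000283). KIF19 (0.33), which trims ciliary microtubules, and KIF21A (0.28, and 0.25 from its second probe set), which restrains microtubule growth, rose. KIF9 fell by 0.27 (other probe sets −0.22, −0.23 and 0.05). The KIF9 probe sets with decreases are of a type that can cross-detect other transcripts, and that which gave 0.05 is not. KIF12 (0.33, adjusted p = 0.0313) and KIF25 (0.27, adjusted p = 0.0342) lost their calls without shGFP replicate 3 (0.128 and 0.143). The same held without shBCL9 replicate 1 (0.0732 and 0.0915) or 3 (0.0908 and 0.105). KIF12 also lost its call without shGFP replicate 2 (0.122). In the fit on only the 6 arrays of this arm neither was called (adjusted p = 0.0904 and 0.0619). The KIF12 arrays of shBCL9 and shGFP overlapped. With the ACTB 3′ minus 5′ signal in the model, which also separated shBCL9 from shGFP without overlap, KIF21A turned to −0.06 and KIF19 gave 0.04 (adjusted p = 0.807 and 0.823). Only KIF20A of the 5 mitotic calls and KIF12 of the 7 other calls were left, with 6 of the 8 transport calls (all but KIF5A and KIFC2). With the 18S signal in the model, KIF21A and KIF19 turned to −0.73 and −0.76, KIFC1 turned to 0.26, and 0 mitotic and 0 transport kinesins were called, and its values in shBCL9 and shGFP did not overlap.

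**Figure D3:**
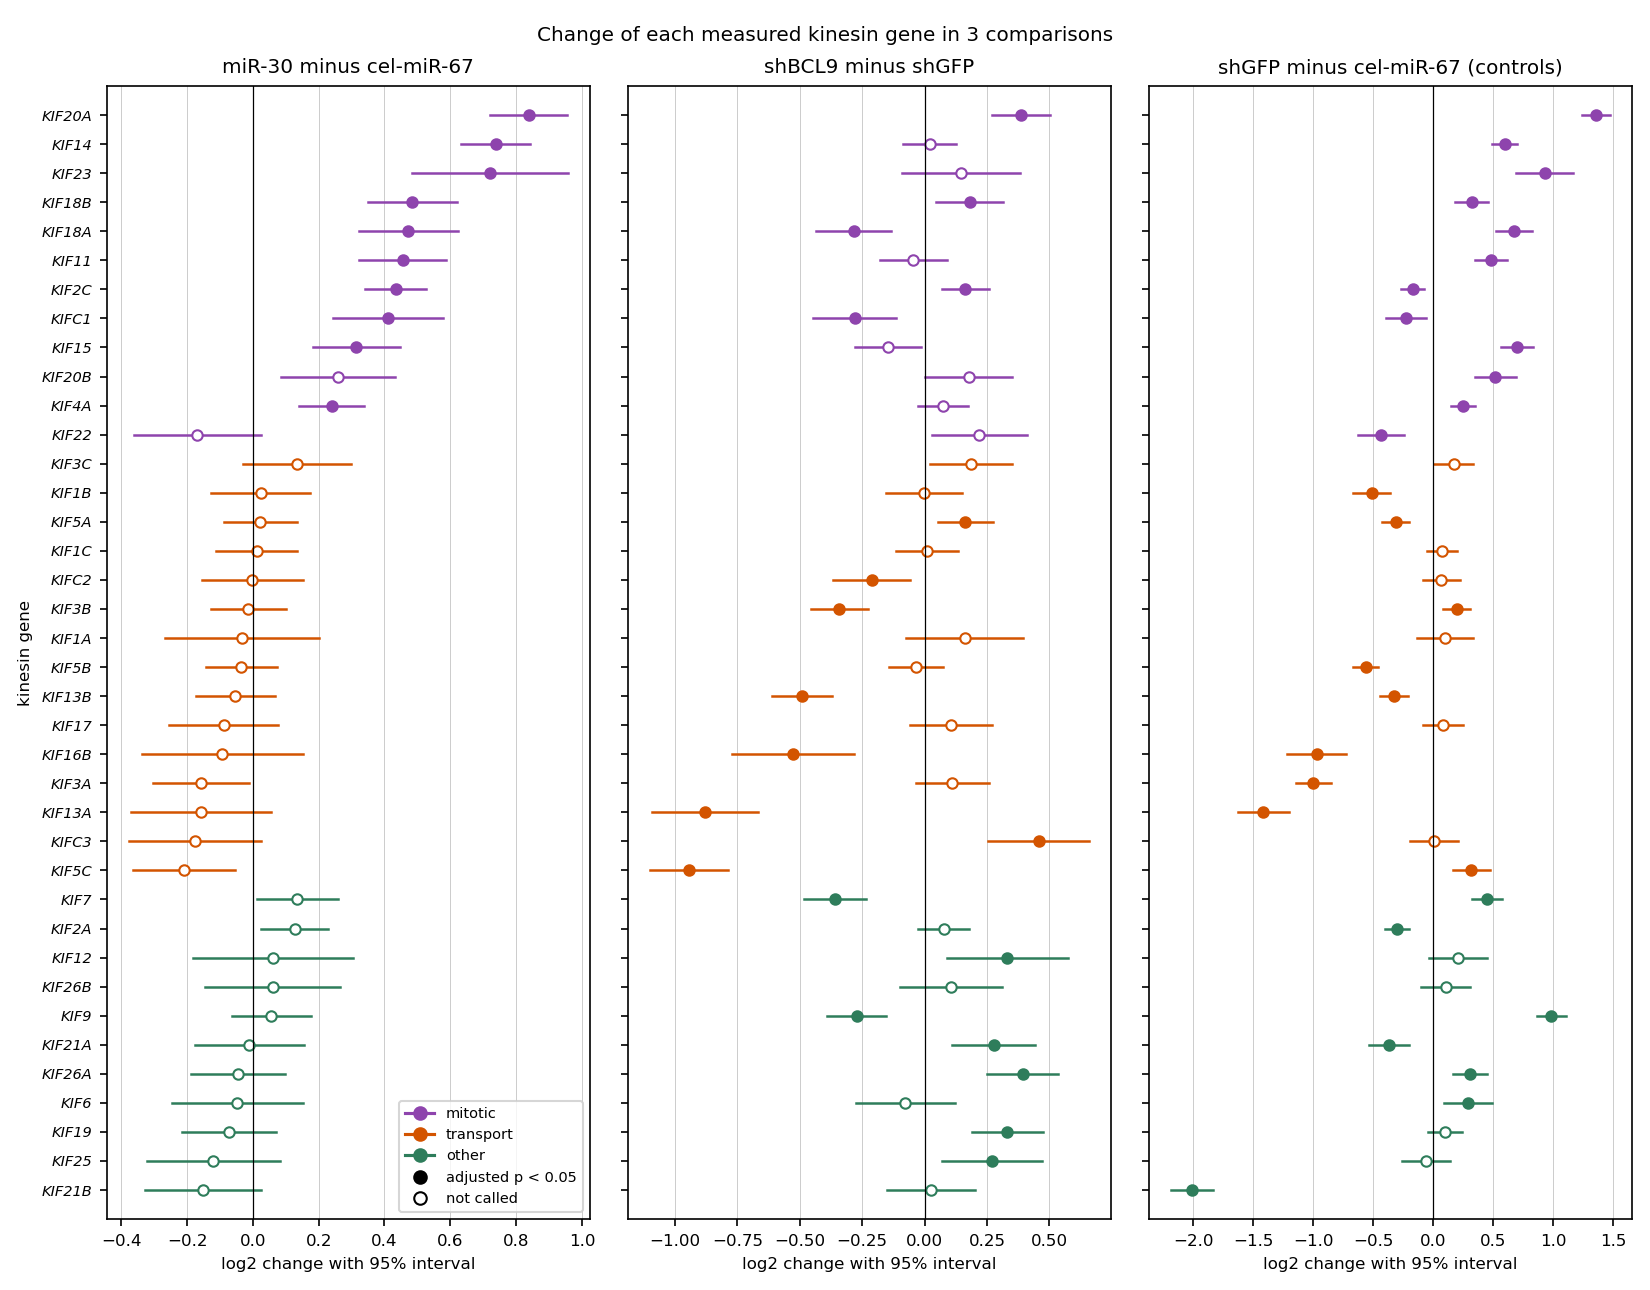
Log2 change of each of the 38 tested kinesins, with its 95% interval, for miR-30 minus cel-miR-67, shBCL9 minus shGFP, and shGFP minus cel-miR-67; filled points were called at adjusted p under 0.05, colours give the class, and the scales differ between panels. In the first panel the 10 filled points are all mitotic kinesins above 0, while the second has 10 filled points on each side of 0.

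**Figure D4:**
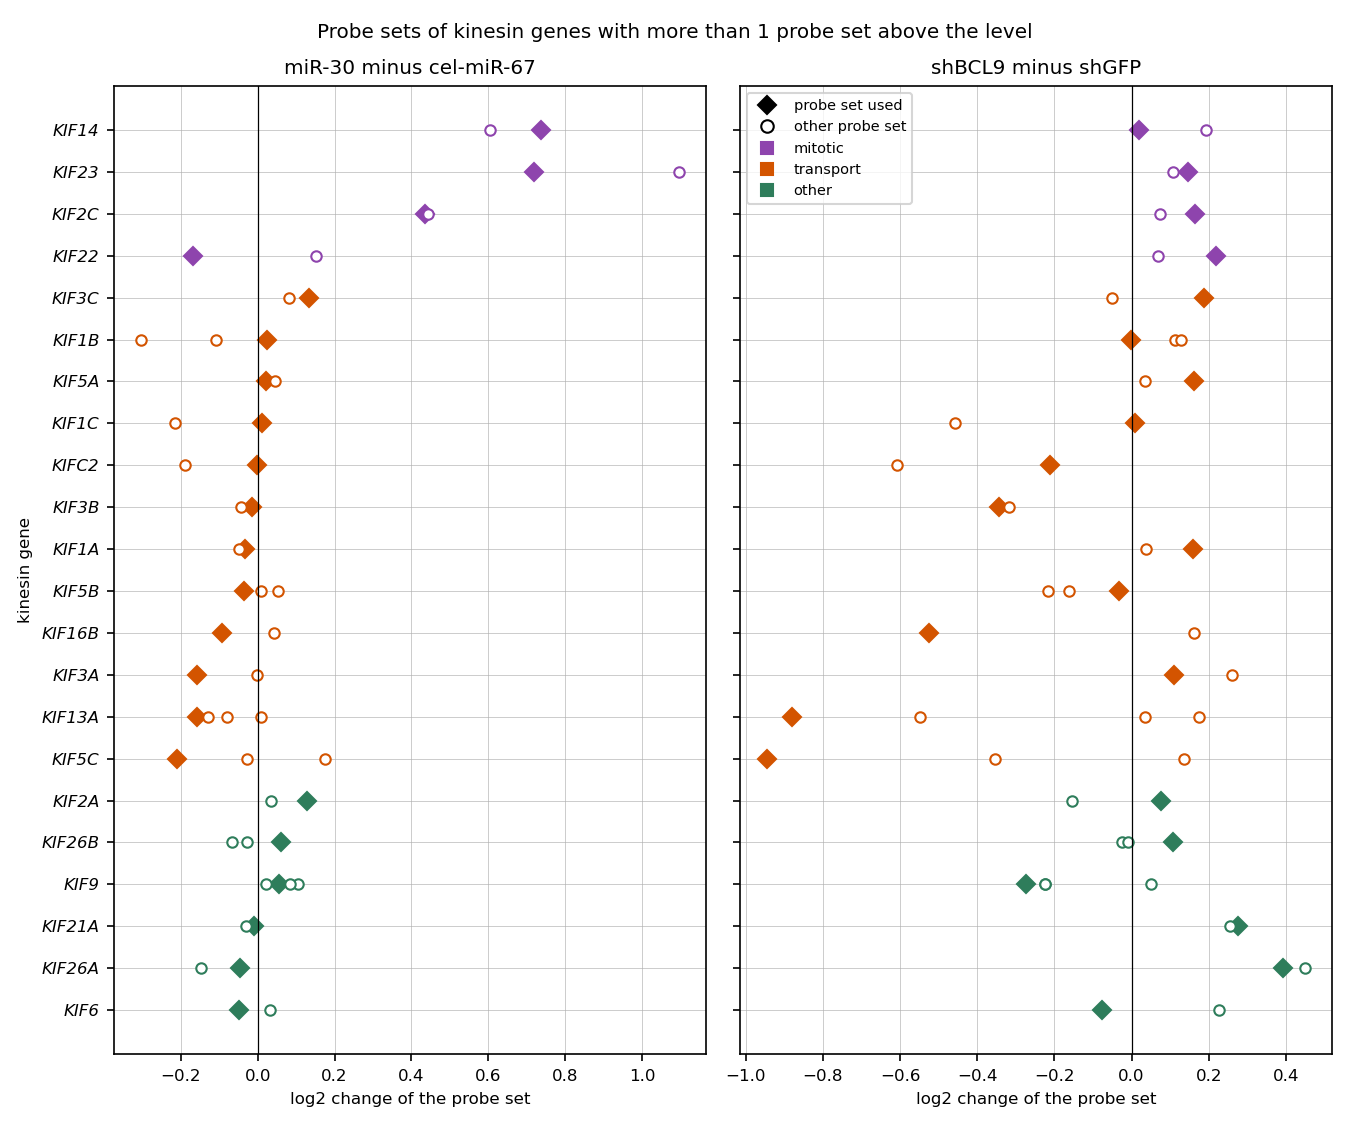
Log2 change of the probe set used (diamonds) and of the gene's other tested probe sets (circles) in both treatment comparisons. With miR-30 the 3 other probe sets of called genes share the sign of the one used; with shBCL9 10 of 15 do, and probe sets of KIF5C, KIF13A, KIF16B and KIF9 fall on both sides of 0.

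The effects of both treatments were set against each other in 1 contrast, the miR-30 effect minus the shBCL9 effect, which uses all 12 arrays and shares them with both comparisons above. It was called for 9 mitotic kinesins in the positive direction and 1 in the negative, of 12, and for 4 and 1 of 15 transport kinesins, while 26.3% of all genes were called (14.6% positive and 11.7% negative). On the probe sets used, KIF18A had the largest difference of the mitotic kinesins (0.76 ± 0.10, adjusted p = 0.000118). It was followed by KIF14 (0.72), KIFC1 (0.69, adjusted p = 0.000541) and KIF23 (0.57). This order depends on the probe set, since the second probe sets of KIF23 and KIF14 gave 0.99 and 0.41. KIF11 (0.50), KIF15 (0.46), KIF20A (0.45), KIF18B (0.30) and KIF2C (0.27) followed, and KIF22 was negative (−0.39, adjusted p = 0.0373), though 0.08 from its second probe set. KIF4A (0.17, adjusted p = 0.0801) and KIF20B (0.08) did not pass. For the transport kinesins KIF5C (0.74), KIF13A (0.72), KIF13B (0.44) and KIF3B (0.33), the positive difference came with a decrease in shBCL9 and no call with miR-30, and KIFC3 (−0.63) was the reverse. Other probe sets of KIF5C gave 0.33 and 0.04, and those of KIF13A 0.42, −0.12 and −0.17. Of the others, KIF7 (0.49) and KIF9 (0.33) were positive, and KIF26A (−0.44), KIF19 (−0.40) and KIF25 (−0.39) negative.

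The control groups differed from each other in most kinesins: 28 of 38 were called between shGFP and cel-miR-67, where 61.4% of all genes were (28.4% higher and 33% lower in shGFP). This comparison shares its shGFP arrays with the hairpin comparison and its cel-miR-67 arrays with the microRNA comparison, and infection, sorting and transfection differ in it at once and cannot be told apart. All 12 mitotic kinesins were called, 9 higher and 3 lower in shGFP, with a median of 0.50 beside 0.02 over all genes. The arrays of the control groups did not overlap for any of the 12, beside 31.3% of all genes in the higher and 34.8% in the lower direction. KIF20A was 2.56-fold higher (1.36, adjusted p = 2.29e-10), KIF23 1.91-fold (0.93) and KIF15 1.62-fold (0.70), whereas KIF22 (−0.43), KIFC1 (−0.23) and KIF2C (−0.17) were lower. The second probe set of KIF22 went the other way and passed over all probe sets (0.45, adjusted p = 0.000549), and that of KIF2C gave −0.01. Of the transport kinesins, 2 were higher and 7 lower: KIF13A by 2.67-fold (−1.42), KIF3A by 2-fold, KIF16B (−0.97), KIF5B (−0.56), KIF1B (−0.51), KIF13B (−0.33) and KIF5A (−0.31) were lower, and KIF5C (0.32) and KIF3B (0.19) higher. Other probe sets did not bear out all of these. Both others of KIF1B gave 0.14, that of KIF16B gave 0.05, that of KIF5A −0.02, and those of KIF13A −0.04, −0.43 and −1.19. Among transport kinesins not called, other probe sets of KIF3C (0.52, adjusted p = 7.35e-05) and KIF1C (−0.66, adjusted p = 0.00018) passed over all probe sets. The ACTB 3′ minus 5′ signal, which separated these groups without overlap, left 3 mitotic and 0 transport calls when it was put in the model.

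KIF21B, a motor that pauses microtubule growth and is prominent in lymphocytes and neurons, differed most of all kinesins between the controls. It read 9.19, 9.12 and 9.19 in shGFP and 9.17, 9.17 and 9.24 in shBCL9, but 11.34, 11.17 and 11.03 with cel-miR-67 and 11.16, 11.03 and 10.89 with miR-30. The infected arrays were thus all low and the transfected arrays all high (4.03-fold lower in shGFP, −2.01 ± 0.08, adjusted p = 2.88e-10), with no call within either arm. KIF9 showed the opposite order on the probe set used (0.98, adjusted p = 5.27e-09). Its other probe sets gave 0.86, 0.71 and 0.12, the last of which did not pass over all probe sets (adjusted p = 0.256). The KIF9 probe set used and those that gave 0.86 and 0.71 are of a type that can cross-detect other transcripts. That which gave 0.12 is not.

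Over the 4 groups, the cel-miR-67 mean was the lowest for 9 of the 12 mitotic kinesins. For KIF20A the order was shBCL9, shGFP, miR-30 and cel-miR-67, with no overlap between neighbours. For KIF14 miR-30 stood highest, shBCL9 and shGFP overlapped, and cel-miR-67 lay below. For KIF23, KIF4A and KIF11 the miR-30 arrays overlapped those of shGFP, and for KIF2C and KIFC1 they stood above all other arrays. For 8 of the 15 transport kinesins the shBCL9 mean was the lowest. KIF13A and KIF16B fell into the order cel-miR-67, miR-30, shGFP and shBCL9, with both infected groups far below both transfected ones; for KIF16B the arrays of both transfected groups overlapped.

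**Figure D5:**
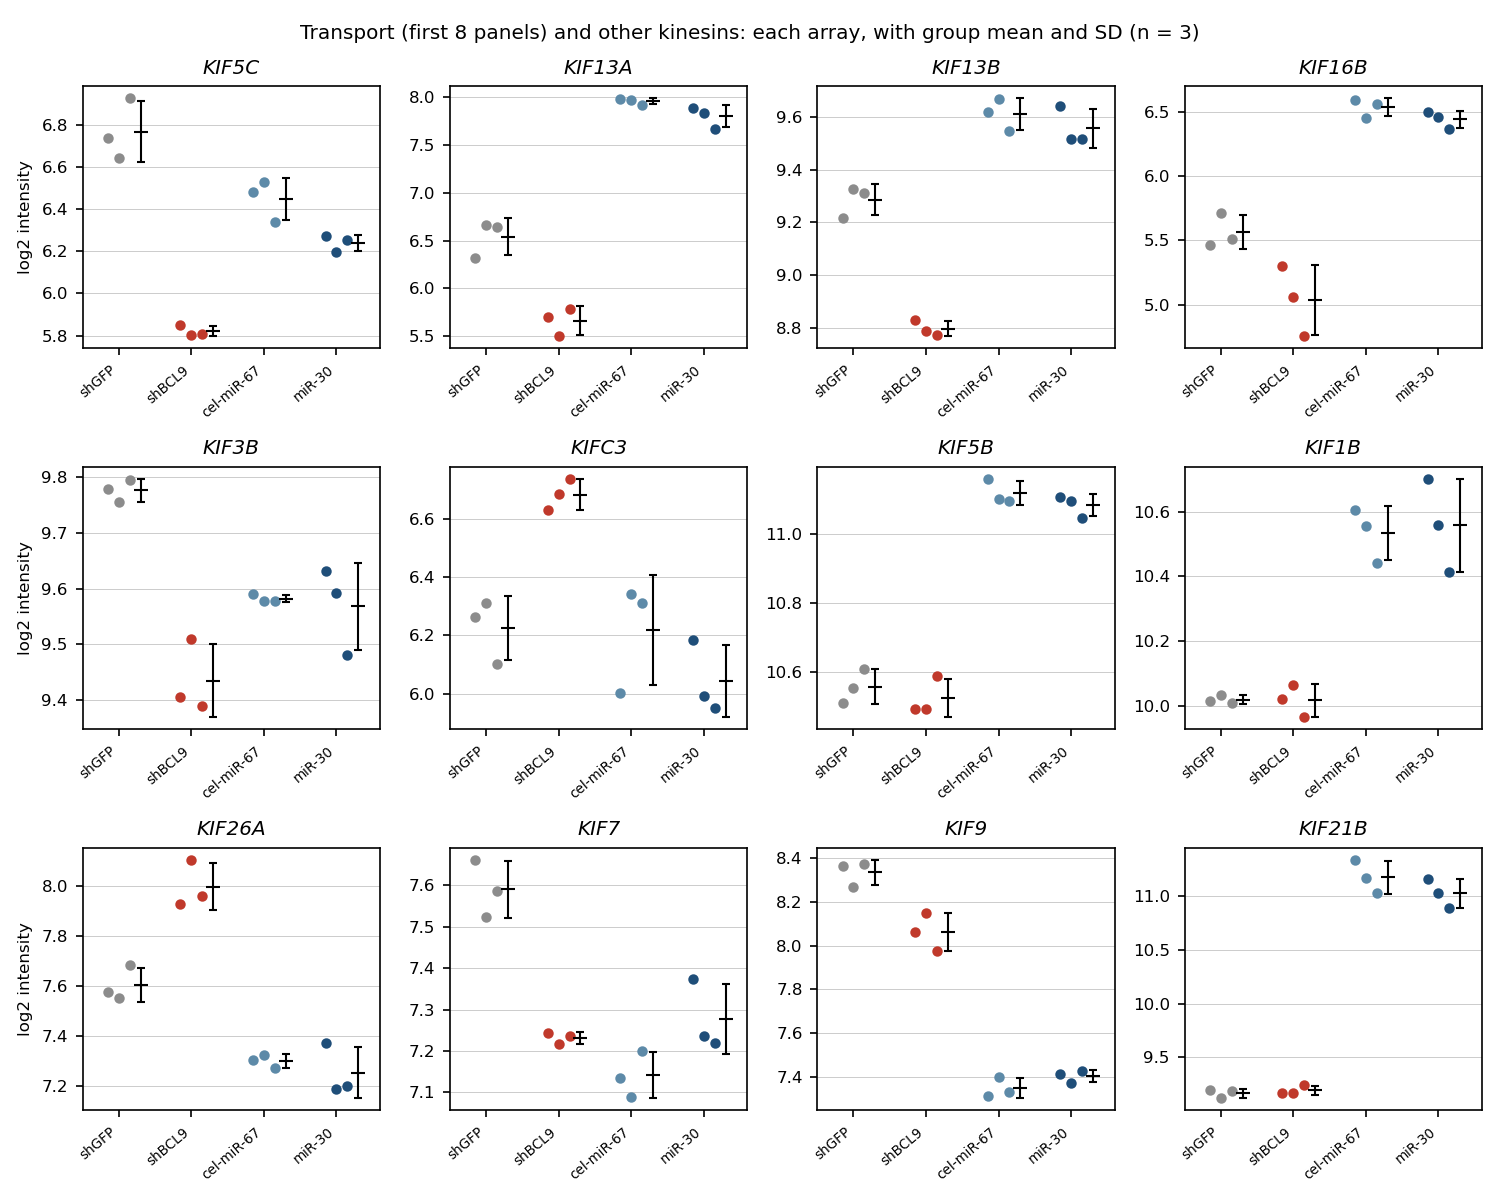
Log2 signal in every array (points), with group mean and SD (n = 3), of 8 transport kinesins and, in the last 4 panels, of KIF26A, KIF7, KIF9 and KIF21B; each panel has its own scale, which does not start at 0. KIF5C, KIF13A, KIF13B, KIF16B and KIF3B lie lower in shBCL9 than in shGFP, and KIF21B lies near 9 in the infected and near 11 in the transfected arrays.

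Genes that work with the kinesins were followed as lists, chosen like the classes. Of 22 tested partners of mitotic kinesins (of 23 listed), 18 rose with miR-30 and 0 fell, with a median of 0.37, where 2.34% of all genes rose and 2.63% fell. They included the kinetochore protein CENPF (0.65) and the kinetochore kinesin CENPE (0.57), whose symbol puts it outside the KIF rule. The passenger complex subunit CDCA8 (0.54) and the mitotic cyclin CCNB1 (0.49) rose too. In shBCL9, 4 of the 22 rose, among them the spindle protein TACC3 (0.29) and the kinases PLK1 (0.25) and AURKB (0.18), and CDCA8 alone fell (−0.25), where 18.7% of all genes rose and 22.9% fell. Of the 23 listed partners, 19 had a full promoter window, and 13 of these (68.4%) held both TTTGAA and CCAAT in it. The share over all genes with a window was 7.26%.

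Of 20 tested adaptors of transport kinesins (of 22 listed), 0 rose and 1 fell with miR-30, the kinesin-binding protein KIFBP (−0.18, adjusted p = 0.0495), beside 4.98% of all genes called. In shBCL9, 5 rose and 4 fell, a share close to the 41.5% of all genes called. KIFAP3, the third subunit of the KIF3A-KIF3B motor, fell by 0.60, and RHOT1, the mitochondrial anchor of KIF5, fell by 0.47. The light chain KLC1 rose by 0.26 (other probe sets −0.02, 0.17 and 0.42), as did HAP1 (0.26), an adaptor named for huntingtin.

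Dynein, the motor that walks toward the minus end, was followed with dynactin and its adaptors in 25 tested genes of 29 listed. With miR-30 the kinetochore adaptor SPDL1 (0.32) and the mitotic dynein regulator NDE1 (0.36) rose, and the dynein chains DYNLL1 (−0.28) and DYNC1LI2 (−0.26) fell. In shBCL9, 4 rose and 8 fell, again near the 41.5% called over all genes (4.98% with miR-30), among them the cargo adaptors HOOK3 (0.75) and HOOK2 (−0.46) and the chains DYNLT3 (−0.56) and DYNC1LI2 (−0.32). Of 26 tested tubulins and microtubule regulators (of 28), 2 rose and 0 fell with miR-30, the beta-tubulins TUBB (0.29) and TUBB2B (0.41), read by probe sets that can cross-detect related tubulins. In shBCL9, 8 rose and 5 fell, beside the same 41.5%, including the microtubule-binding proteins MAP1B (1.66, and 1.47 and 1.69 from its other probe sets) and MAP4 (0.50), the alpha-tubulin TUBA1A (−1.02) and the destabiliser STMN3 (−0.88).

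The 4 antisense RNAs with KIF symbols gave no call in any of the 4 contrasts. With miR-30, KIF23-AS1 gave 0.04 (adjusted p = 0.893) while KIF23 itself rose by 0.72, and in the control comparison the antisense RNAs ranged from 0.04 to 0.23.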

How the data were processed

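Total RNA of 12 samples, in 4 groups of 3, was labelled from its 3′ end and hybridised to arrays of 54675 probe sets. The deposited values are log2 intensities made by the authors with RMA, per the submitters' processing notes, which name the affy package; scanner files were not used here, and the versions are not given in the sources used here. Of the probe sets, 41097 have 1 symbol in the platform annotation, 1801 have several and 11777 are unlisted; 41043 matched a RefSeq gene by identifier. The number of arrays limits the precision of every value.

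Per gene, the probe set with the highest mean was fitted with limma 3.58.1 (lmFit and eBayes, R 4.3.3), a mean per group, on all 12 arrays; adjusted p-values are Benjamini-Hochberg over 14725 genes, and fold is 2 raised to the log2 change. Genes above their array's 40th percentile in at least 3 arrays were kept. The script was tested on simulated data. Array values were named for every member among the 8 largest called changes of each treatment comparison, and up to 4 called genes by adjusted p from each pathway list. Members, classes and lists were chosen with earlier results of these data known. Alternatives were other filters, probe set choices, scalings, weights, covariates, thresholds, a replicate block and leaving out each array. Figures were drawn with matplotlib 3.10.9.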

Additional observations from a re-analysis of the deposited data

Results flagged for a closer look

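For 2 mitotic kinesins the treatments moved the gene in opposite directions, each called in its own comparison, and the difference between the effects passed the test. KIF18A, the motor that dampens chromosome movements, fell by 0.28 in shBCL9 and rose by 0.47 with miR-30, a difference of 0.76 on the log2 scale (limma, adjusted p = 0.000118). KIFC1, the minus-end motor that gathers spindle poles, fell by 0.28 in shBCL9 and rose by 0.41 with miR-30, a difference of 0.69 (limma, adjusted p = 0.000541). With the ACTB 3′ minus 5′ signal as a covariate the shBCL9 change of KIFC1 was −0.04 (adjusted p = 0.896) and that of KIF18A −0.42 (adjusted p = 0.082). With the 18S signal KIFC1 turned to 0.26 and KIF18A gave −0.24 (adjusted p = 0.938 and 0.939), so neither kept its call in shBCL9 with either covariate; both signals separated shBCL9 from shGFP without overlap. For both genes, neither treatment's arrays overlapped those of its control. Groups of 3 were too small for a search for single outlying arrays.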

How the results depend on the processing

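The count of mitotic kinesins raised with miR-30 (10) was 9 to 10 when single arrays were left out. It was 3 with a 1.5-fold minimum or with 18S as a covariate. KIF20B was added to the called genes with trended robust variance (adjusted p = 0.0195) or after a further quantile normalization (adjusted p = 0.041). With miR-30, no transport kinesin was called per gene under any alternative run. Over all probe sets, however, another probe set of KIF1B passed as a decrease (−0.30, adjusted p = 0.0391). In shBCL9 the mitotic count (5) was 3 at adjusted p under 0.01, 0 at 1.5-fold, 3 with plain probe sets (of 8 genes), 8 after quantile normalization, 1 with the ACTB covariate and 0 with 18S, and its median (0.11) became 0.019 and −0.14 with those covariates. The transport count there (8) was 2 at 1.5-fold and 0 with 18S, and the median (−0.00) was −0.14 over means of probe sets and −0.21 with 18S. For the difference of effects the mitotic count (10) was 3 at 1.5-fold, 4 with ACTB and 0 with 18S; the transport count (5) was 3 at 1.5-fold, 3 with plain probe sets, 2 with ACTB and 0 with 18S, and its median (0.00) was 0.12 with the 60th percentile filter and 0.18 with 18S. Between controls the mitotic count (12) was 5 at 1.5-fold and 3 with ACTB, and the median (0.50) was 0.39 over means of probe sets, 0.67 with ACTB, 0.58 with 18S and 0.45 to 0.57 without single arrays. The transport count (9) was 3 at 1.5-fold and 0 with ACTB, and the median (0.01) was −0.16 at the 60th percentile, −0.10 with plain probe sets, −0.16 with ACTB, −0.16 with 18S and −0.10 to 0.053 without single arrays. With plain probe sets the called KIF5C (0.14, adjusted p = 0.102), KIF13A (0.036, adjusted p = 0.752) and KIF9 (0.050, adjusted p = 0.595) reversed in shBCL9. The causes were not tested.

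Deviations of same-numbered arrays from their group means correlated at 0.05, 0.10 and 0.07 in the hairpin arm. In the microRNA arm the correlations were 0.12, 0.09 and 0.23. These values cannot decide whether same-numbered arrays share a culture or a batch, which the labels do not state. The replicate block gave 5 mitotic and 8 transport calls in shBCL9, and 10 and 0 with miR-30, as without it; single calls of KIF18B (adjusted p = 0.0512) and KIF25 (0.0529) were lost and KIF22 (0.0222) was gained.

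Over all genes, 733 were called with miR-30, and 1419 with trended robust variance, 1220 with array weights, 1113 at the 60th percentile, 475 with plain probe sets, 443 with only 6 arrays, 56 with 18S and 297 to 542 without single arrays. In shBCL9 6118 were called, 2967 with ACTB and 11 with 18S; for the difference 3872, 1717 and 19; between controls 9044, and 1658 with ACTB.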
